A study of Mus musculus with 29 samples.

Results

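The genes described here encode proteins of synaptic vesicles, of transmitter release and of synaptic scaffolds, together with close relatives that carry the same family names. They were the 43 rows, of 5826 in the authors' deposited table of comparisons, whose symbol matched a fixed name pattern (synaptotagmins, Vamp, Sv2, syntaxins and their binding proteins, Snap, synapsins, synaptophysin, synaptogyrins, complexins, Rab3, neurexins, neuroligins, Shank, Dlg, Dlgap, Homer, Lrrtm, Bassoon, Piccolo, Unc13 and Rims). The pattern matches 104 gene names of the mouse annotation, so the other 61 names had no row in the table. By known role, 22 members were presynaptic (of 40 names), 4 were postsynaptic (of 21 names) and 17 were SNAREs of general membrane traffic or other relatives (of 43 names). RNA was sequenced from primary cortical cultures of adult wild-type mice (strain C57/BL6). Mice of the lesion groups had received a conditioning lesion in vivo a day before plating, while naive groups had no treatment, and both were harvested at days 1, 2, 3, 5 and 7. There were 15 lesion and 14 naive libraries in 10 groups, with 3 libraries in each group except the naive group of day 7, which had 2. How many animals or cultures stood behind the libraries is not given in the labels, so p-values measure the spread between libraries, which may be technical.

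In the authors' limma-voom fit of 19085 genes per day, each row of the table had an adjusted p under 0.1 on at least 1 day. Membership thus already required a change at some day, and counts or medians over the 43 members describe those that passed, not the whole families. Fold changes are log2, lesion over naive, so that negative values mean lower in lesion cultures; "rose" and "fell" are used for an adjusted p under 0.1 in the authors' deposited table. Values of single libraries and their depth are not part of the table and are unknown here. Standard errors (SE) and 95% intervals were derived from the fold changes together with their p-values.

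A presynaptic terminal stores transmitter in vesicles that dock at the active zone, where syntaxin 1 and SNAP-25 of the plasma membrane pair with synaptobrevin (VAMP) of the vesicle to form the SNARE complex. Calcium binding to synaptotagmin triggers fusion of the membranes, and Munc13 (Unc13a) and complexins control the steps before it. On the opposite side, scaffolds such as SAPAP (Dlgap) and Homer proteins anchor receptors, and adhesion proteins such as LRRTMs bind presynaptic neurexins. Related SNAREs serve endosomes, lysosomes and secretion in cells of all kinds.

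At day 5 all 22 presynaptic members were lower in lesion cultures, and the 4 postsynaptic members were lower too. The 17 other relatives divided, with 6 fallen, 7 risen and 4 not past the threshold. In total 32 members fell and 7 rose at day 5 in the authors' deposited table, where 11.2% of all genes tested fell and 12.8% rose. Of the 5826 rows, which like the members had passed at some day, 2137 fell and 2438 rose at day 5. At the same day 6 of 13 neuronal markers fell, and 9 of 10 mural and fibroblast markers and 9 of 10 dividing-cell markers rose. The part of these cell types in the members' changes was not tested, and in bulk RNA fewer neurons and less synaptic RNA per neuron cannot be told apart. Set against all gene names of the pattern, 55.0% of presynaptic names fell, against 4 of the 21 postsynaptic names and 14.0% of the other names, of which 16.3% rose. Names without a row count as not fallen in these shares, whether or not they were tested, so the shares are lower bounds. The difference between the presynaptic and postsynaptic shares was not tested. Ranks differed as well: the rank column, which the table does not explain and which is read here as mean expression with 1 the highest, had a median of 2863 in presynaptic, 5351 in postsynaptic and 6212 in other members. Among all genes with a rank up to 9542, 20.0% fell and 9.92% rose at day 5.

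**Figure D1:**
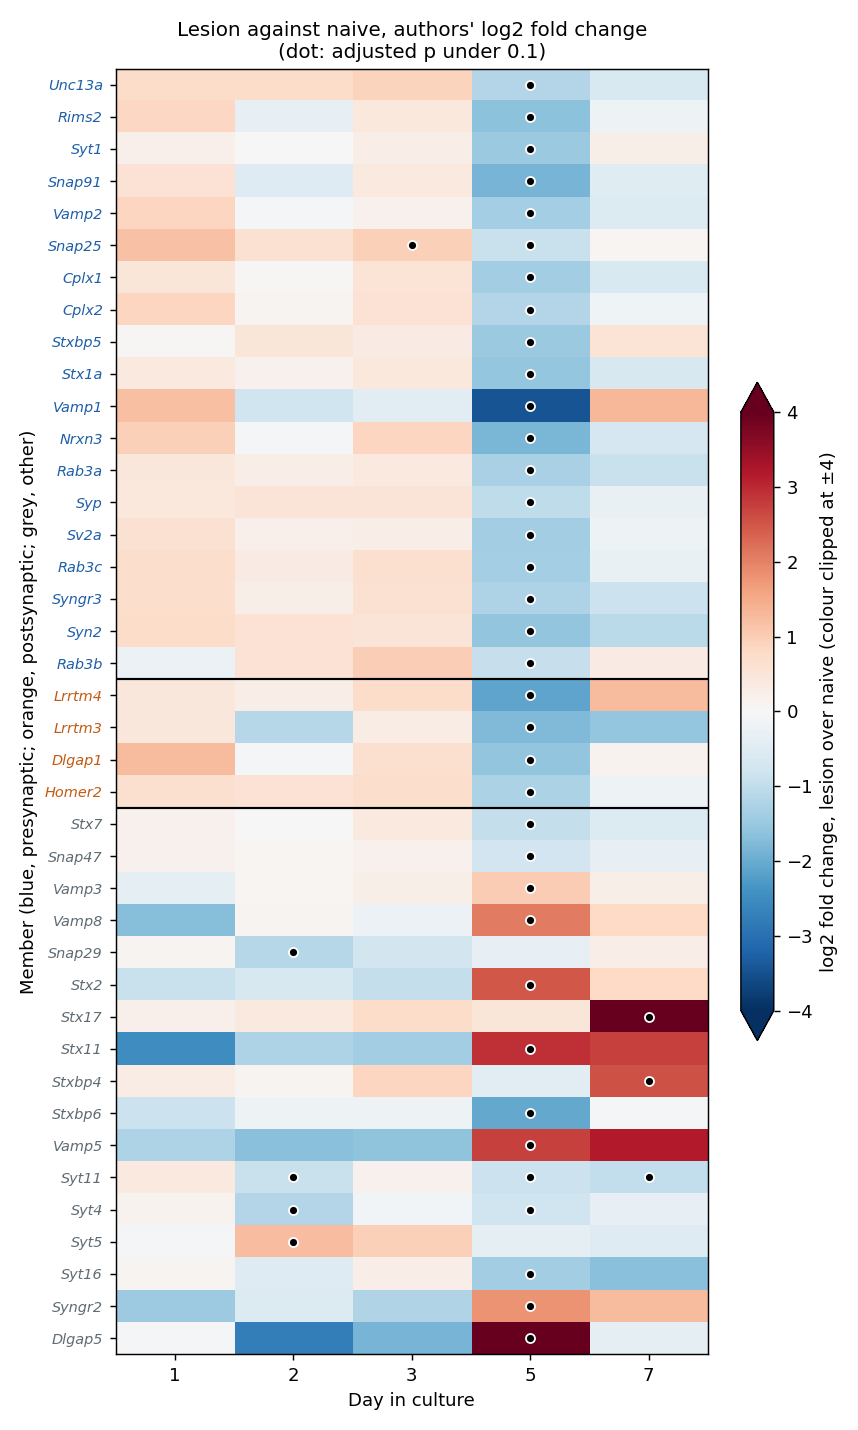
Authors' log2 fold change of lesion over naive (colour) for 40 of the 43 members (rows, grouped as presynaptic, postsynaptic and other) at each day in culture (columns); dots mark an adjusted p under 0.1. Of the 44 dots, 36 stand at day 5, where the 19 presynaptic and 4 postsynaptic rows are negative.

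**Figure D2:**
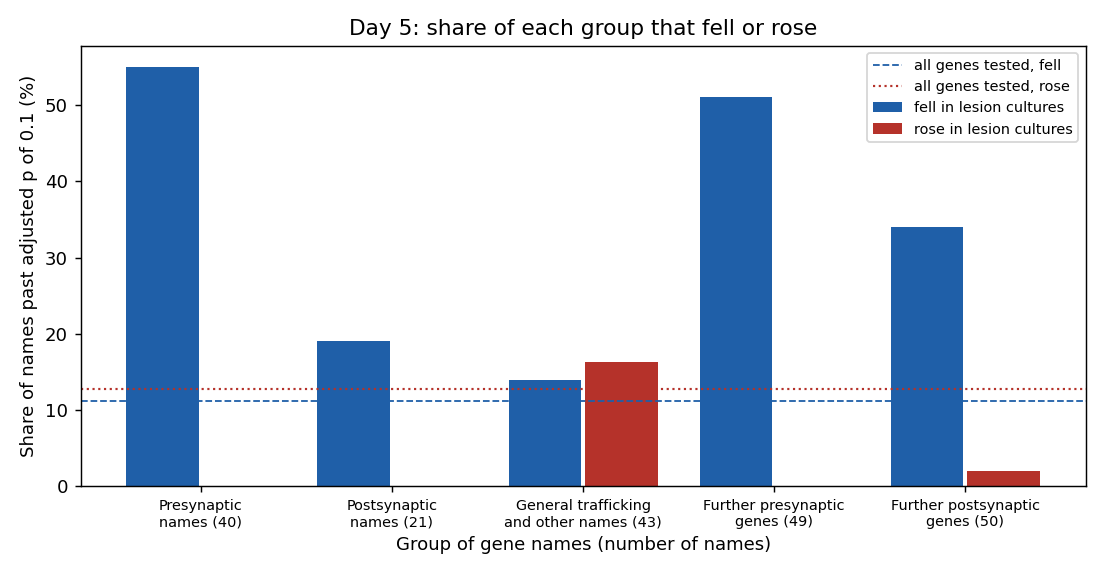
Share of gene names in each group that fell or rose in lesion cultures at day 5 (bars, percent of names), with the shares over all genes tested as lines (11.2% fell, 12.8% rose). The presynaptic bar stands at 55.0% and the postsynaptic bar at 4 of 21 names.

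The fusion machinery held the smallest adjusted p of the members. Vamp2, the main synaptobrevin of forebrain vesicles, had log2 fold changes of 0.86, -0.04, 0.17, -1.37 and -0.55 at days 1, 2, 3, 5 and 7 in the authors' deposited table. Of these values, that of day 5 passed, with an implied SE of 0.24 and an adjusted p of 0.000198. Snap25, its partner in the plasma membrane, was the single member past the threshold in opposite directions at different days. In the authors' deposited table Snap25 rose by 0.96 at day 3 (SE 0.26, adjusted p = 0.0784) and fell by 0.88 at day 5 (SE 0.24, adjusted p = 0.0134). Its log2 fold changes were 1.18 at day 1, 0.62 at day 2 and 0.09 at day 7 in the authors' deposited table, none past the threshold. Cplx2, a complexin that clamps the assembled complex, fell by 1.18 at day 5 (SE 0.25, adjusted p = 0.0018 in the authors' deposited table).

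Other members of this machinery moved the same way at day 5 with wider errors. Vamp1, a synaptobrevin more prominent in brainstem and spinal cord than in cortex, had the lowest log2 fold change of all members, -3.45, with a 95% interval from -5.86 to -1.04 and a rank of 11637 in the authors' deposited table. The syntaxin gene Stx1a, whose product pairs with SNAP-25, stood at -1.53 in the authors' deposited table, with an SE of 0.56. Cplx1 had a log2 fold change of -1.38, and the tomosyn gene Stxbp5, whose product competes for syntaxin, had one of -1.48 in the authors' deposited table. In all, 9 of the 11 SNARE and regulator names fell at day 5, where 11.2% of all genes tested fell. Syt1, the fast calcium sensor of release, had log2 fold changes of 0.21, 0.01, 0.27, -1.49 and 0.22 over the 5 days in the authors' deposited table, at an adjusted p of 0.00163 at day 5. It was the single row among the 4 sensor names (Syt1, Syt2, Syt7 and Syt9).

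Vesicle proteins gave 7 fallen of 12 names at day 5, where 11.2% of all genes tested fell, and none at any other day. Sv2a, a transporter-like vesicle glycoprotein that binds the antiepileptic drug levetiracetam, had log2 fold changes of 0.62, 0.20, 0.27, -1.38 and -0.21 at days 1, 2, 3, 5 and 7 in the authors' deposited table, and its adjusted p was 0.00041 at day 5. Rab3a, a small GTPase of vesicles, gave 0.47, 0.28, 0.39, -1.28 and -0.88 on the same days in the authors' deposited table, at an adjusted p of 0.00151 at day 5 and 0.125 at day 7. Both genes were thus lower at day 5 and had small positive values before it. Syn2, one of the synapsins that tether vesicles to actin, was the lowest of this group at day 5 with -1.59 (SE 0.40), and Rab3b the highest with -0.93 (SE 0.34) in the authors' deposited table. The remaining 3 genes, Rab3c, Syp and Syngr3, lay between them at -1.35, -1.02 and -1.25 in the authors' deposited table. Synaptophysin, the product of Syp, is among the most abundant proteins of the vesicle membrane. Sv2b, Sv2c, Syn1, Syn3 and Syngr1 had no row.

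Fewer of the active-zone names had a row. Unc13a, which primes vesicles for fusion, had log2 fold changes of 0.73, 0.74, 0.89, -1.16 and -0.61 over the 5 days in the authors' deposited table; it passed at day 5 (SE 0.35, adjusted p = 0.0229). Rims2, a scaffold that recruits calcium channels to release sites, fell by 1.63 at day 5 (SE 0.60, adjusted p = 0.0581 in the authors' deposited table). These were 2 of 9 active-zone names (22.2%), where 11.2% of all genes tested and 20.0% of those with a rank up to 9542 fell. Whether the active-zone share differs from these shares was not tested. Bsn, Pclo, Unc13b, Unc13c, Rims1, Rims3 and Rims4 had no row. Snap91, which despite its symbol is no SNARE but the clathrin adaptor AP180 of vesicle recycling, fell by 1.86 (SE 0.40, adjusted p = 0.00173 in the authors' deposited table). The neurexin gene Nrxn3, which encodes a presynaptic adhesion protein, fell by 1.84 at day 5 in the authors' deposited table, with an SE of 0.67 and an adjusted p of 0.0549. Its value at day 3 was 0.85 and did not pass in the authors' deposited table (adjusted p = 0.263).

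**Figure D3:**
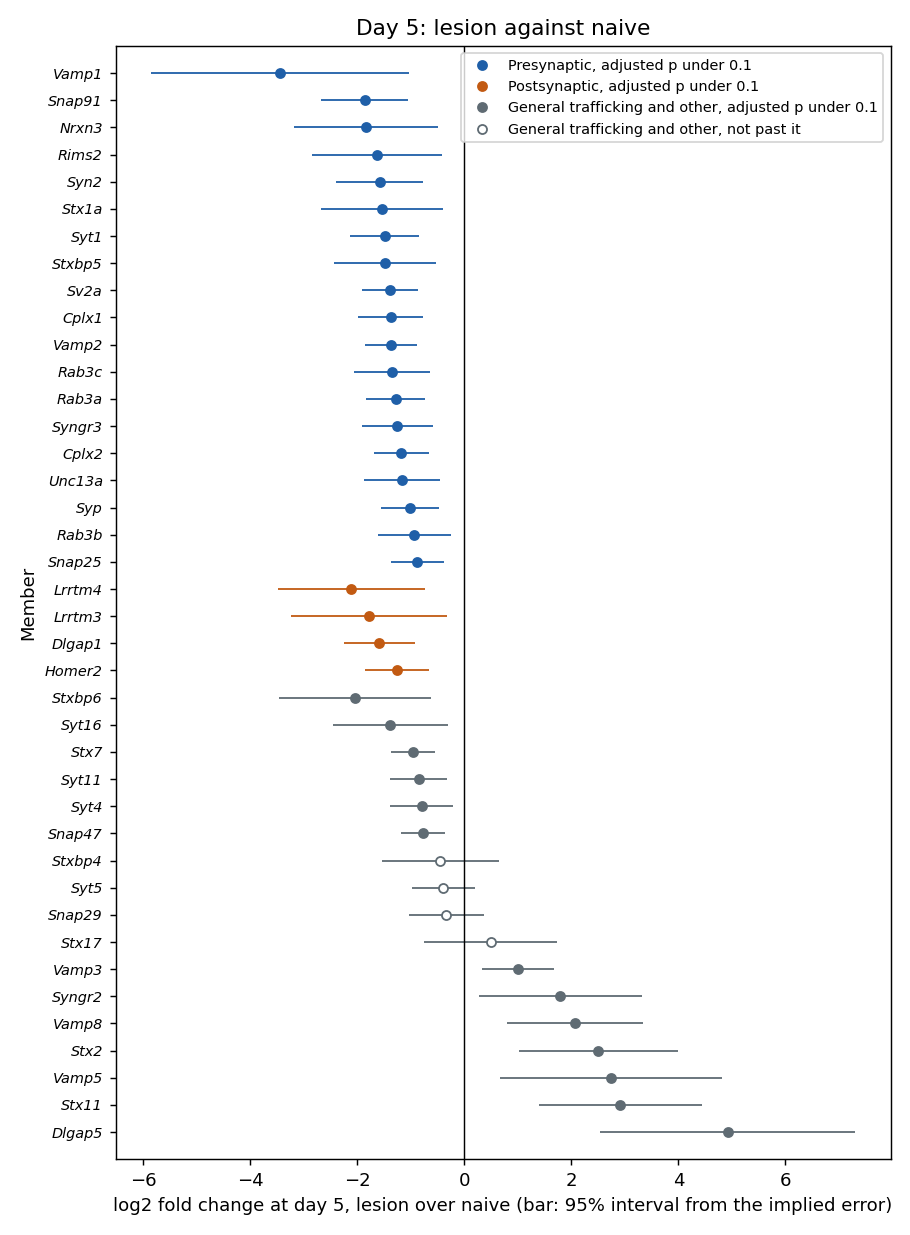
Log2 fold change at day 5 (horizontal axis, lesion over naive) of 40 of the 43 members, each with its 95% interval from the implied standard error; filled points passed an adjusted p of 0.1. Presynaptic members lie between -3.45 and -0.88, postsynaptic ones between -2.11 and -1.26, and the others between -2.04 and 4.92.

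On the postsynaptic side 2 of 14 scaffold names and 2 of 7 adhesion names fell at day 5, or 4 of 21 names together. Of all genes tested 11.2% fell at that day, and of those with a rank up to 9542 20.0% fell. Whether the postsynaptic share differs from these shares was not tested, so no decrease of the postsynaptic group beyond them is shown. Dlgap1, which links PSD-95 to Shank, had log2 fold changes of 1.26, -0.09, 0.64, -1.59 and 0.15 over the 5 days in the authors' deposited table; its adjusted p was 0.143 at day 1 and 0.00131 at day 5. Homer2, which binds group I metabotropic glutamate receptors, gave 0.65, 0.58, 0.70, -1.26 and -0.21 in the authors' deposited table, at an adjusted p of 0.00427 at day 5. The adhesion genes Lrrtm4 and Lrrtm3 fell by 2.11 (SE 0.68) and 1.78 (SE 0.72) at day 5 in the authors' deposited table. Their values at day 7 were 1.25 for Lrrtm4 and -1.55 for Lrrtm3 in the authors' deposited table, neither past the threshold. The size of the decrease at day 5 overlapped between the sides, with a median of -1.68 over the 4 postsynaptic and -1.38 over the 22 presynaptic members. No Shank, Dlg or neuroligin name of the pattern had a row, nor had Dlgap2, Dlgap3, Dlgap4, Homer1, Homer3, Lrrtm1 or Lrrtm2; no level or fold change of these genes is known here.

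The genes that rose at day 5 all came from the other relatives. Dlgap5, which shares its family name with Dlgap1 but encodes a protein of the mitotic spindle, had the highest value of all members, with log2 fold changes of -0.09, -2.78, -1.86, 4.92 and -0.35 over the 5 days in the authors' deposited table (SE 1.18 and adjusted p = 0.00444 at day 5). Stx11, a syntaxin best known from the granules of cytotoxic lymphocytes, gave -2.50, -1.22, -1.39, 2.91 and 2.73 in the authors' deposited table, at an adjusted p of 0.142 at day 1, 0.0083 at day 5 and 0.102 at day 7. The SNARE genes of general membrane traffic Stx2, Vamp5, Vamp8 and Vamp3 rose by 2.50, 2.74, 2.06 and 1.01 at day 5 in the authors' deposited table. Syngr2, a synaptogyrin found widely outside neurons, rose by 1.79 (SE 0.75), just inside the limit with an adjusted p of 0.0964 in the authors' deposited table. Genes just outside that limit at every day have no row.

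Within single families, members moved in opposite directions at day 5. Vamp1 and Vamp2 fell while Vamp3, Vamp5 and Vamp8 rose. Among the syntaxins Stx1a and Stx7 fell, whereas Stx2 and Stx11 rose. Stx7, a syntaxin of late endosomes, had the lowest rank number of the members, 476, and fell by 0.96 (SE 0.20, adjusted p = 0.00138 in the authors' deposited table). Snap25 fell together with Snap47, a widely expressed SNAP relative that stood at -0.77 (SE 0.21, adjusted p = 0.0102 in the authors' deposited table). The syntaxin-binding gene Stxbp6, which encodes amisyn, fell by 2.04 (SE 0.70, adjusted p = 0.0446 in the authors' deposited table).

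Promoter windows of 4 of these genes are shown because they hold, among members with 1 window, the 2 smallest adjusted p-values of fallen (Sv2a and Snap91) and of risen genes (Stx11 and Vamp8) at day 5. Each holds 300 bases and runs 5′ to 3′ on the gene's strand across the start that RefSeq gives (build GRCm38.p6; the GENCODE M21 start of Snap91 lies just past the end of its window), most of it before the start, with the letters GGGCGG, the core of a GC box, in capitals on either strand (as CCGCCC on the other). The windows are chr3:96180977-96181276 on the plus strand for Sv2a, and on the minus strand chr9:86880659-86880958 for Snap91, chr10:12964210-12964509 for Stx11 and chr6:72390618-72390917 for Vamp8.
Sv2a: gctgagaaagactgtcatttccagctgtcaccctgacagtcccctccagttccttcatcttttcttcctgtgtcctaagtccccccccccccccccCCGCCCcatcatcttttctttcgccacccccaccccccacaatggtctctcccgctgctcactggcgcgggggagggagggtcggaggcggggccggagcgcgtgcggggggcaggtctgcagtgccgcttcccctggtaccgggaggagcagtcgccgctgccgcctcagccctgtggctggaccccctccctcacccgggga
Snap91: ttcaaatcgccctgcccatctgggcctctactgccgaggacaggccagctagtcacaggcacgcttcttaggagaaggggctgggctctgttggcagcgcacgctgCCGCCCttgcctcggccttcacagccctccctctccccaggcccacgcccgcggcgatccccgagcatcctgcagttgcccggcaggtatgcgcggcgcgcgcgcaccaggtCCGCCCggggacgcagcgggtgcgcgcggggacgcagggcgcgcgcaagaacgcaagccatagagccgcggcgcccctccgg
Stx11: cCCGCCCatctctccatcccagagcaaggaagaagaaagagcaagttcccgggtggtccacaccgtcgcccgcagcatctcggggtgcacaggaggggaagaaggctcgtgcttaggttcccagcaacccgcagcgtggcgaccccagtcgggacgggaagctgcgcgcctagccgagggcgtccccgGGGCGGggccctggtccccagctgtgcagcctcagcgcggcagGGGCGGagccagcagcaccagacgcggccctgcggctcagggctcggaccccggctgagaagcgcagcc
Vamp8: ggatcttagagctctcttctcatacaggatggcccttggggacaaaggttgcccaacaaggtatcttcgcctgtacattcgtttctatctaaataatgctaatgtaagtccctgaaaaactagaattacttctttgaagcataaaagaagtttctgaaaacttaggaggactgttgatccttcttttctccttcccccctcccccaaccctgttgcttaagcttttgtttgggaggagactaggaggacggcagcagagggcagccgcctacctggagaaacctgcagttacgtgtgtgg
The GC box stood once in the Sv2a window, 2 times in that of Snap91, 3 times in that of Stx11 and not in that of Vamp8. RefSeq gave 42 windows for 32 of the 43 members, and 26 of these windows, 61.9%, held GGGCGG on either strand, against 35.7% of all 32851 windows. All windows here include those of genes that were not tested. The letters CG, which GGGCGG itself holds, had a median count of 16.5 in members' windows and 7.0 in all windows. Whether the GGGCGG excess goes beyond this CG content was not tested. GGGCGG stood in 60.6% of windows of fallen genes (20 of 33) and 66.7% of windows of risen genes (4 of 6) at day 5. By role it was 70.0% in presynaptic, 14.3% in postsynaptic (1 of 7 windows) and 73.3% in other members. The letters TATAAA, the core of a TATA box, stood in 9.52% of members' windows and 13.6% of all windows; GGGCGG and TATAAA cannot overlap.

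Before day 5 few members passed. At day 1 the authors' limma-voom fit called 0 of the 43 members, where 0.529% of all genes tested fell and 0.0891% rose, and 10 had an unadjusted p under 0.05 (7 positive, 3 negative). Values of presynaptic members were nonetheless mostly positive, in 21 of 22 cases at day 1, with a median of 0.70, a lowest value of -0.22 (Rab3b) and a highest of 1.21 (Vamp1) in the authors' deposited table. Over all genes of the table the median was 0.00 at day 1, with 2914 of 5826 values above 0, and over those with a rank up to 9542 it was 0.19. At day 3 presynaptic values were again positive in 21 of 22 cases, with a median of 0.48, against -0.10 over all genes of the table and 0.15 over those with a rank up to 9542. Members share libraries, so their common sign is not a set of independent observations. Of the presynaptic members Snap25 alone passed at day 3, where 0.943% of all genes tested fell and 0.534% rose.

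At day 2 the members past the threshold were all among the other relatives, by the roles assigned here, and 4.08% of all genes tested fell and 1.89% rose. In the authors' deposited table Syt4 fell by 1.17 (SE 0.26, adjusted p = 0.0149) and Syt11 by 0.90 (SE 0.24, adjusted p = 0.0373). Both encode synaptotagmins that do not bind calcium as Syt1 does. Syt4 was also past the threshold at day 5, with a log2 fold change of -0.80 and an adjusted p of 0.0537 per the authors' deposited table. Syt11 was past the threshold at the most days of any member, as it also fell at day 5 by 0.85 and at day 7 by 0.99 (adjusted p of 0.0249 and 0.0464 in the authors' deposited table). Its values at days 1 and 3 were 0.40 and 0.17 in the authors' deposited table, so the decrease was not seen at each day. In the authors' deposited table Snap29, a SNARE of autophagosome fusion, fell by 1.13 at day 2 (adjusted p = 0.0636), and Syt5 rose by 1.25 (adjusted p = 0.0722).

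At day 7 no presynaptic or postsynaptic member passed in the authors' limma-voom fit, where 0.985% of all genes tested fell and 3.11% rose. An unadjusted p under 0.05 was found for 4 presynaptic members and 1 postsynaptic member, all negative. The presynaptic median was -0.29 and ranged from -1.09 (Syn2) to 1.31 (Vamp1) in the authors' deposited table. Other relatives gave Syt11 fallen and 2 risen genes. Stx17, an autophagosomal syntaxin, rose by 4.10 (SE 1.25, adjusted p = 0.0791), and Stxbp4, a syntaxin 4 partner in glucose transport, rose by 2.56 (SE 0.70, adjusted p = 0.0495) in the authors' deposited table. Syt16, a synaptotagmin relative without the usual membrane anchor, had -1.38 at day 5 (adjusted p = 0.0709) and -1.67 at day 7 (adjusted p = 0.133) in the authors' deposited table.

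**Figure D4:**
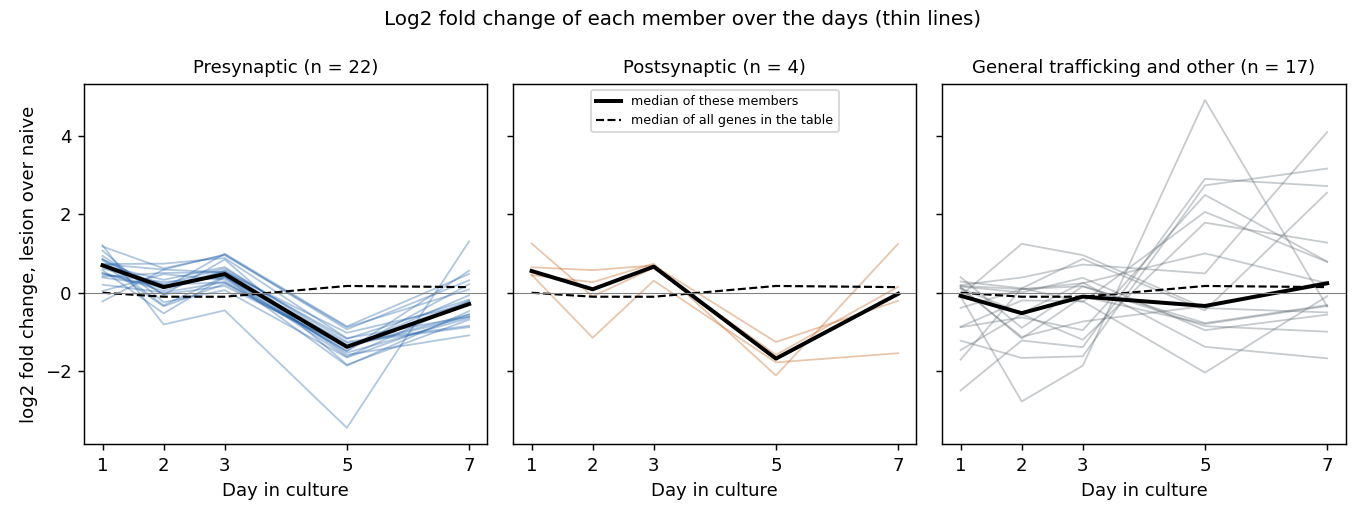
Log2 fold change, lesion over naive (vertical axis), against day in culture for each presynaptic (n = 22), postsynaptic (n = 4) and other member (n = 17) as thin lines, with the group's median (thick) and the median of all genes in the table (dashed). The presynaptic median was 0.70, 0.15, 0.48, -1.38 and -0.29 at days 1, 2, 3, 5 and 7.

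Differences between days were tested directly, with the days taken as independent because their comparisons use different libraries. Whether libraries of different days came from the same mice or cultures is not given in the labels, so that assumption could not be checked. An F test of heterogeneity among the 5 fold changes of a gene (Cochran's statistic), adjusted over all 19085 genes, passed 0.05 for 28 of the 43 members (17 of 22 presynaptic, 2 of 4 postsynaptic and 9 of 17 others). In all 15.6% of the genes tested passed, and 51.0% of the 5826 rows of the table. Members entered the table through the same fold changes and p-values, most of them at day 5, and genes without a row counted as not passing, so these counts describe the members and their excess over the shares of all genes is no result. With day 5 left out 2 members passed, Stx11 (adjusted p = 0.0262) and Syt11 (adjusted p = 0.0247), where 3.96% of all genes passed. For day 5 minus day 3, 18 presynaptic members and 3 postsynaptic members had a lower log2 fold change at day 5 and none a higher one, where 7.17% of all genes tested and 23.5% of the rows of the table were lower. All presynaptic and postsynaptic members had fallen at day 5, which by itself gave them a row. Their differences from day 5 thus draw on the values that selected them, and the excess over these shares is no result. Of the other relatives 2 were lower and 6 higher, where 8.34% of all genes and 27.3% of the rows were higher. Snap25 had the smallest adjusted p, with a difference of -1.84 (SE 0.36, adjusted p = 0.000667). The largest difference was that of Dlgap5, at 6.78 (SE 1.62, adjusted p = 0.0039).

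The comparison of day 5 with day 1 gave 16 presynaptic and 3 postsynaptic members lower at day 5 (5.89% of all genes tested were lower and 6.05% higher, or 19.3% and 19.8% of the rows), and that with day 2 gave 14 and 3 (4.43% lower and 5.72% higher, or 14.5% and 18.7% of the rows). Both share the day 5 libraries with the difference from day 3, and the limit from selection at day 5 holds for them too. For day 5 minus day 7 no member passed in the t statistic from implied errors, while 17 had an unadjusted p under 0.05 (0.430% of all genes were lower and 0.618% higher at day 5). The smaller sizes at day 7 were therefore not shown to differ from those of day 5. For Vamp2 that difference was -0.81 with an adjusted p of 0.298.

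Further genes of the same pathways, outside the name pattern, fell more often than they rose at day 5. Of 49 other presynaptic genes 25 fell and none rose in the authors' deposited table (51.0% of names fell, where 11.2% of all genes tested fell and 12.8% rose). Of genes with a rank up to 9542, 20.0% fell and 9.92% rose. These lists of other genes were chosen with earlier results of these data known, and their shares were not tested. Synpr, a vesicle protein related to synaptophysin, rose by 1.34 at day 3, fell by 1.86 at day 5 and fell by 1.11 at day 7 in the authors' deposited table. The endocytic gene Amph fell by 1.41 at day 5 in the authors' deposited table. Of 50 other postsynaptic genes 17 fell and 1 rose (34.0% and 2.00% of names), among them Camk2b, a subunit of a postsynaptic kinase, at -1.12 (SE 0.28) in the authors' deposited table. Il1rapl1, a postsynaptic adhesion gene, rose by 1.78 at day 2 and by 1.73 at day 3 and fell by 2.22 at day 5 in the authors' deposited table. Slc17a6, a vesicular glutamate transporter gene that is also on the list of glutamatergic markers, stood at -5.01 at day 2 and -5.76 at day 3 in the authors' deposited table (SE 1.36 and 1.33). At day 3, 5 of the other presynaptic genes rose and 1 fell, where 0.534% of all genes tested rose and 0.943% fell.

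Markers of cell types moved at the same day. Of 13 neuronal markers 6 fell and none rose at day 5, among them Map2 at -1.70 (SE 0.37) in the authors' deposited table, and of 10 GABAergic markers 7 fell and 1 rose. Markers of glutamatergic neurons gave none fallen or risen of 9 at day 5. Over the same comparison 9 of 10 mural and fibroblast markers, 9 of 10 dividing-cell markers and 4 of 10 astrocyte markers rose and none fell. Col1a1, a fibrillar collagen gene of fibroblasts, stood at 5.53 (SE 0.61) and Birc5, a mitotic gene, at 3.84 (SE 0.69) in the authors' deposited table. Endothelial markers gave 1 risen of 10 at day 5. Oligodendrocyte-lineage markers gave 2 risen of 11, microglial and macrophage markers 1 risen of 10. Over all genes tested 11.2% fell and 12.8% rose at day 5, so the endothelial, oligodendrocyte-lineage and microglial counts are near that share. At day 2, 6 endothelial, 4 oligodendrocyte-lineage, 3 glutamatergic, 3 dividing-cell, 2 neuronal markers and 1 GABAergic marker fell, while 1 neuronal and 1 GABAergic marker rose. At day 3, 4 endothelial, 2 oligodendrocyte-lineage markers and 1 glutamatergic marker fell and 2 GABAergic markers rose. At day 7, 5 mural and fibroblast markers, 2 dividing-cell markers, 1 oligodendrocyte-lineage and 1 microglial marker rose, and 1 GABAergic marker fell. At day 1 the single marker past the threshold was microglial, and it fell. Of all genes tested, 0.529%, 4.08%, 0.943% and 0.985% fell at days 1, 2, 3 and 7. On the same days 0.0891%, 1.89%, 0.534% and 3.11% rose. The labels call the cultures adult neurons; levels of marker genes are unknown here, as the table gives comparisons alone.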

How the data were processed

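RNA from 29 libraries was prepared with an ultra-low input kit and sequenced on a HiSeq instrument, per the labels' protocols, and aligned with STAR to the mm10 build, as the submitters' processing notes state. How reads were counted and filtered, and whether strand was used, is not given in the sources used here. The authors deposited 1 table of comparisons made with voom and limma, per the file name, which holds, for lesion against naive at each of 5 days, a log2 fold change, a p-value and a p-value adjusted for multiple tests. The rank column is a score that the deposited file does not explain; it is read here as a rank of mean expression, which could not be checked. No values per library or counts were used, so neither depth nor its precision can be given.

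Rebuilding the deposited adjusted p-values by Benjamini and Hochberg's method needed 19085 genes a day (largest relative deviation 9.15e-13). Standard errors were derived from fold changes and p-values with 37 degrees of freedom, for which they varied least with p among genes with a rank up to 4771. The F test between days and the t statistic for day 5 against each other day used these errors, with Benjamini-Hochberg adjustment over all genes tested, those without a row at a p of 1. The F test alone was tried on simulated data. There, days were independent, a gene's error was the same at each day, and every gene was present, unlike in the deposited table. Alternatives were another threshold, a minimum change, ranks up to 9542, neuronal synaptic members alone, other degrees of freedom and days left out.

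The members, roles and lists were chosen with earlier results of these data known, and no test was made over a list. Members described in full were those past the threshold at 2 or more days, up to 3 with the smallest adjusted p per role and day, and the extremes of each role at day 5; Cplx1, Rab3c, Stx1a, Stx2, Stxbp5, Syngr3, Syp, Vamp3, Vamp5 and Vamp8 were named after their values were seen. The single values of 3 members, and of some genes of the other lists, are not reported here; counts and medians include them. Chromosomes of all 43 members matched GENCODE M21. Python 3.11.15, pandas 2.3.3 and scipy 1.17.1 were used.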

Additional observations from a re-analysis of the deposited data

Results flagged for a closer look

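The log2 fold change of lesion over naive differed between days for 28 members, in the F test of heterogeneity from implied errors, adjusted over all genes tested; the values of 26 of them follow. Among SNAREs, sensors and regulators of release the adjusted p was 0.000544 for Vamp2, 0.000993 for Snap25, 0.00203 for Cplx2, 0.00609 for Cplx1 and 0.0282 for Syt1. Vesicle genes gave 0.00242 for Rab3a, 0.00363 for Sv2a, 0.00775 for Syngr3, 0.0119 for Syn2, 0.0127 for Rab3c, 0.0151 for Syp and 0.0452 for Rab3b. The active-zone gene Unc13a had 0.00356, the clathrin adaptor gene Snap91 0.0113, and the neurexin gene Nrxn3 had 0.03. On the postsynaptic side the adjusted p was 0.000921 for Dlgap1 and 0.00383 for Homer2.

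The other relatives gave 0.000605 for Stx11, 0.00278 for Stx7, 0.0059 for Dlgap5, 0.00887 for Syt11, 0.0174 for Vamp5, 0.026 for Stx2, 0.0296 for Syngr2, 0.0318 for Syt5 and 0.0372 for Vamp8. The table holds no value per library, so single libraries that stand apart could not be looked for.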

How the results depend on the processing

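At an adjusted p under 0.05, 14 of the 47 single calls of members were lost; the counts became 0 risen at day 2, 0 risen at day 3 and 1 risen at day 7. With a minimum absolute log2 fold change of 1, no member had risen at day 3 (0) or fallen at day 7 (0), and among ranks up to 9542, 1 had risen at day 7. The neuronal synaptic members were the presynaptic and postsynaptic ones by the roles assigned here. Over these alone, 0 had fallen and 0 risen at day 2, 0 risen at day 5, and 0 fallen and 0 risen at day 7. This left out the calls of Syt4, Syt11 and Syt5 among the other relatives, so the counts of 0 do not cover them. The number of members that differed between days was 2 with day 5 left out, against 28. The other 49 alternative counts were within 1.5 times of those reported, among them the 32 fallen at day 5 and the fallen presynaptic and postsynaptic counts, under each of the 4 settings tried for them. Those 4 settings can only remove calls, so counts of 0 had to stay at 0 and are among the 49. All presynaptic and postsynaptic members are neuronal synaptic members, so that setting could not change their counts. No paired analysis was possible because the table holds comparisons and no columns of single libraries; for the same reason no library could be left out. Depth limits could not be assessed.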

Other observations

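Rest, which encodes a repressor of neuronal genes in non-neuronal cells, had log2 fold changes of -1.34, -1.15, -1.50, 2.24 and 0.77 at days 1, 2, 3, 5 and 7 in the authors' deposited table. Its adjusted p was 0.0565 at day 5, and it was chosen after its values were seen.

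Gene span varied widely among members that fell together at day 5. By GENCODE M21 it ran from 3.90 kb for Vamp2 to 1612 kb for Nrxn3 among presynaptic members, with a median of 53.5 kb. The median was 476.5 kb over the 4 postsynaptic members. Over all 17 other members it was 26.1 kb, and of these 6 fell and 7 rose at day 5.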
